A study of Mus musculus with 6 samples.

Results

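The imprinted growth genes are 9 mouse genes, Dlk1, Meg3, Rian, Mirg, Peg3, Mest, Plagl1, Cdkn1c and Grb10, chosen by name out of 22408 genes with a RefSeq transcript and placed on NCBI Build 37. The stretch from the start of Dlk1 to the end of Mirg on chromosome 12 was also read as a single region, the Dlk1-Meg3 domain. Chromatin was taken from myotubes that had formed in 48 h in differentiation medium (DMEM with 2% horse serum) from primary myoblasts of wild type C57BL/6 fetal limb muscle (E18.5, passage 17). Sox6, a repressor of slow fibre genes in fetal muscle, and RNA polymerase II (Pol II), the enzyme that transcribes these genes, were immunoprecipitated, and input is chromatin DNA without immunoprecipitation. Each of the 3 groups has 2 libraries, and all 6 come from the same kind of wild type cells, so no second genotype or treatment was compared. The Pol II and Sox6 libraries hold 1468604 to 2985437 mapped reads and the inputs 21973495 and 24249850, so values of the immunoprecipitations at single sites carry most of the counting error. The libraries of a group are described as independent experiments, with no word on separate animals. The p-values measure only the spread between these libraries, which limma pools over all features. At start sites a site's own spread hardly enters its p-value, so very small values there do not measure how well the libraries of that site match. Pol II reads were higher than input at the starts and over the bodies of 10 of 10 myotube markers such as Myog and Myh3, whereas 0 of 7 fibroblast, 0 of 5 adipocyte, 0 of 4 endothelial, 0 of 3 chondrocyte and 0 of 3 erythroid markers were higher at their starts. Among the 3 leukocyte markers 1 was higher (Cd68, a lysosomal protein, at 7.03 and 7.83 RPKM in the 2 Pol II libraries, against 0.17 and 0.14 for the leukocyte antigen Ptprc), and so was 1 of 3 Schwann cell markers. Over bodies 2 of 3 leukocyte markers were higher, Cd68 and Csf1r (log2 ratio 0.55, adjusted p = 0.049), and none of the markers of the other 6 lists of cell types besides myotubes.

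Imprinted genes are transcribed from the copy inherited from 1 parent only, and many of them set fetal growth. Dlk1, a transmembrane protein that restrains adipocyte differentiation, is expressed from the paternal copy, and the noncoding RNAs Meg3, Rian and Mirg, which carry snoRNAs and many miRNAs, from the maternal copy of the same domain. Peg3, Mest and Plagl1 are paternally expressed, Cdkn1c is a maternally expressed inhibitor of cyclin-dependent kinases, and Grb10 is an adaptor that restrains insulin and growth factor signalling. The deposited reads do not separate the parental copies, and ChIP reads do not give the strand of transcription.

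The sequences at the starts that the Pol II results turn on are shown first, from 250 bases before to 50 bases after the RefSeq start. They were read from a RefSeq table (GRCm38.p6), and each occurs exactly once on its chromosome in NCBI Build 37, at the position given here. Meg3 (chr12:110778956-110779255, + strand) and Peg3 (chr7:6683081-6683380, - strand) are starts with high Pol II. Mest has an upstream start (chr6:30683256-30683555, + strand) without Pol II reads above input and a downstream start (chr6:30687800-30688099, + strand) with them. Capitals mark matches, on either strand, to ACAAAG or ACAATG (Sox), CAGCTG or CAGGTG (E-box), GGAATG (Tead), CCACA (Runx), TGCCGC (Zfp57, a factor that keeps imprints) and TGACGTC (the core of the cAMP response element).
Meg3: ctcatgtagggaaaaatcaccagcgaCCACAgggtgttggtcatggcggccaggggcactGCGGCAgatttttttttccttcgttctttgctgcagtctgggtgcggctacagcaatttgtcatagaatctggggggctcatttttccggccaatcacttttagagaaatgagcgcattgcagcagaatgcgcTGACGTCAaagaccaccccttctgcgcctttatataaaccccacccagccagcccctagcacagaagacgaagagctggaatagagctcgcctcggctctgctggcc
Peg3: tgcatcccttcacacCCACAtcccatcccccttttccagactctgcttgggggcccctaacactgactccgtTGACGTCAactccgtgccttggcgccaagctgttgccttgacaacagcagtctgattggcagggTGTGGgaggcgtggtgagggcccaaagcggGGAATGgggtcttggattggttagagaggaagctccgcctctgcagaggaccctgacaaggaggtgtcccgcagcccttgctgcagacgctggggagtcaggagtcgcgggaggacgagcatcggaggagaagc
Mest upstream start: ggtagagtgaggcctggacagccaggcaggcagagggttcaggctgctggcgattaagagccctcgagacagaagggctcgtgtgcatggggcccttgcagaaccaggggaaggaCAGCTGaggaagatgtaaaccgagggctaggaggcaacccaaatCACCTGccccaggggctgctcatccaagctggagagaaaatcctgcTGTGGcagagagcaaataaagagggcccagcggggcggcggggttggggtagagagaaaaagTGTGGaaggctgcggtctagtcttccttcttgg
Mest downstream start: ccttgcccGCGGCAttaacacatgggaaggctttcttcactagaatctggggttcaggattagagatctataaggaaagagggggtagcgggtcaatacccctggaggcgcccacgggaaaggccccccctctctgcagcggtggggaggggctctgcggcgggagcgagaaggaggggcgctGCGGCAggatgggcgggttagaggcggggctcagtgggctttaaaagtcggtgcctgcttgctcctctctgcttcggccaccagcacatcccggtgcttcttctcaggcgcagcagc
None of the 4 windows holds either of the Sox sequences, which 28.4% of 32544 RefSeq promoters of this length hold. TGACGTC was searched for only after these sequences had been read: it lies in the Meg3 and Peg3 windows, in each as an 8-base palindrome, and 3.22% of all promoters hold it. The windows at Rian, Mirg and another RefSeq start of Meg3 hold none, and the window of 1 of the Grb10 starts holds 1 match. The Zfp57 sequence occurs in the Meg3 window and at 2 places in the downstream Mest window, and 11.7% of all promoters hold it, while E-box sequences (33.1%) occur in the upstream Mest window only of these 4. Tead (14.6%) and Runx (55.8%) sequences occur in the Peg3 window and Runx sequences also in the Meg3 and upstream Mest windows. The windows hold 13 CpG in Meg3, 13 in Peg3, 8 at the upstream and 17 at the downstream Mest start, against a median of 7 over all promoters. A match of these letters is a description of the window and not a site of binding.

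The maternally expressed noncoding RNAs stood among the genes with the most Pol II in these myotubes. Around each start, read ends within 1 kb on either side were counted and scaled to 1000000 reads of the library (RPM) and per kb, and the ratio to input was fitted with limma across 21258 start sites. At the Meg3 start the Pol II libraries held 48 and 108 reads, or 15.6 and 19.5 RPM per kb, against 20 and 22 input reads, or 0.455 and 0.453 RPM per kb. The log2 ratio was 5.30 ± 0.31 (SE), a 39.4-fold enrichment (adjusted p = 5.1e-61), and 27 of the start sites tested lay above it (rank 28). The Pol II and input libraries did not overlap. At the Rian start, 62 and 118 Pol II reads (20.1 and 21.3 RPM per kb) stood against 28 and 24 input reads, with a log2 ratio of 5.21 ± 0.28 (SE). At the Mirg start, 74 and 135 Pol II reads (24.0 and 24.4 RPM per kb) stood against 34 and 20 input reads, with a log2 ratio of 5.43 ± 0.28 (SE). Rian and Mirg, the hosts of the C/D snoRNA and of the distal miRNA cluster, ranked 33 and 20 at their starts, and the intervals of the 3 noncoding RNAs overlap each other.

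Of the 9 genes 6 were called higher for Pol II at the start, at an adjusted p under 0.05, and 0 lower, against 36.1% of all start sites called higher and 5.79% lower. Lower calls at starts rest on few reads and on the 0.5 reads added: their number, 1231, was 3 with 2 reads added, 2879 with reads added in proportion to depth, 155 when scaled on bins without peaks, 11 with thinned inputs, and 12 and 0 without Pol II replicate 1 and 2. The 3 genes that were not called are Dlk1, Mest (read at the start of its longest model) and Cdkn1c. Over the gene body, from 1 kb after the start to the end, 8 of 9 were called higher against 37.1% of 19677 bodies, and Dlk1 was not called. Meg3, Rian and Mirg lie in 1 continuous stretch of Pol II, described below, so their calls are not separate measurements. The start windows of Rian and Mirg lay within the range of the 5-kb bins of that stretch (11.6 to 29.5 and 13.2 to 34.5 RPM per kb in Pol II replicates 1 and 2). The median over all start sites was 0.75 on the log2 scale and that over all bodies 0.10. Ratios near these medians are not an enrichment over the typical gene. Scaling the libraries on bins without peaks raised the median of all start sites to 1.76 and that of all bodies to 1.12, and each member is best read against these medians.

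**Figure D1:**
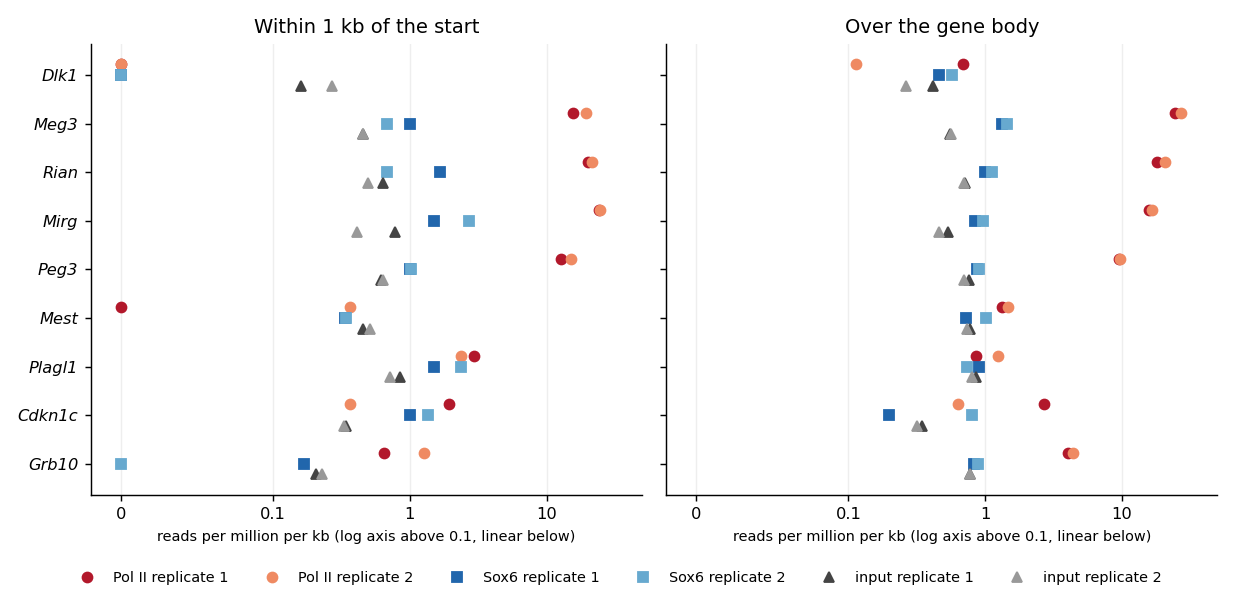
RPM per kb at the starts (left) and over the bodies (right) of the 9 genes in each library, with the x axis linear below 0.1 and logarithmic above it; circles are Pol II, squares Sox6 and triangles input. Pol II in Meg3, Rian, Mirg and Peg3 lies between 9.49 and 27.0 RPM per kb, above every input value of these genes, while in Dlk1, Mest and Plagl1 it lies near or below input in at least 1 of the windows.

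Dlk1 showed no Pol II at its start in either library. The window within 1 kb of the Dlk1 start (chr12:110690059-110692059) held 0 reads in each Pol II library, which allows up to 0.974 and 0.543 RPM per kb for a count of 3 reads, and 7 and 13 input reads, or 0.159 and 0.268 RPM per kb. Since the input itself lies under that limit, no ratio is given, although the window was part of the fit and was not called. The 4 annotated start groups of Dlk1 held 0 to 2 Pol II reads per library, and its body 10 and 3 reads (0.685 and 0.114 RPM per kb) against 86 and 61 in the inputs, with a log2 ratio of -0.30 ± 0.57 (SE, adjusted p = 0.667). The Pol II libraries lie on either side of the inputs over the body. A difference was thus not detectable at this depth, and no Pol II peak of either replicate lies in Dlk1.

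Pol II formed a plateau that began at the Meg3 start and ran past the annotated ends of the noncoding RNAs to the end of Mirg. The domain (chr12:110691059-110987665) holds Dlk1, then Meg3 88.2 kb after the Dlk1 start, Rian 62.9 kb and Mirg 194.0 kb after the Meg3 start, and Mirg ends at 208 kb. In the 5 kb before the Meg3 start the Pol II libraries had 1.43 and 1.59 RPM per kb, and in the first 5 kb after it 15.7 and 19.98. From there to 205 kb, the 41 bins of 5 kb ranged from 11.6 to 29.5 RPM per kb with a median of 20.1 in replicate 1, and from 13.2 to 34.5 with a median of 21.4 in replicate 2. Input ranged from 0.309 to 0.910 and from 0.330 to 0.882 RPM per kb in the same bins. No bin of the plateau came down to the level of input, including those between the annotated genes.

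Past Mirg the signal ended within 10 kb. From 210 to 215 kb the Pol II libraries had 3.51 and 5.36 RPM per kb, from 215 to 220 kb 0.260 and 0.145, and from 220 to 260 kb 0.0975 and 0.118. The last value lies below that of input in the same 40 kb, 0.355 and 0.388 RPM per kb. Along the plateau the density was highest in its first part: in the first 50 kb it was 24.3 and 27.3 RPM per kb, and 20.7 and 22.3 from 50 to 100 kb, 17.5 and 19.1 from 100 to 150 kb, and 18.3 and 20.8 from 150 to 200 kb. The last 3 stretches held 0.698 to 0.851 of the density of the first, in both replicates, whereas input was 1.06 to 1.32 times that of the first stretch. The density thus differed along the plateau far less than at its borders.

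**Figure D2:**
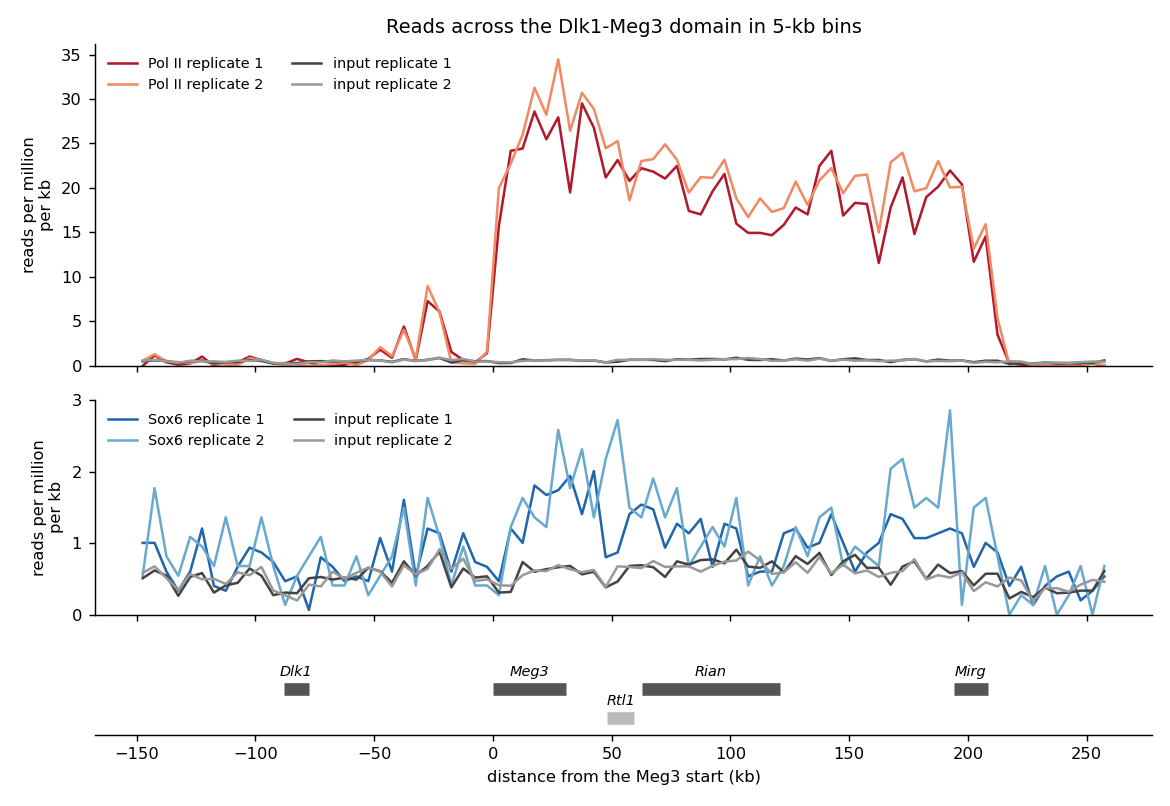
RPM per kb in 5-kb bins across the Dlk1-Meg3 domain, by distance from the Meg3 start in kb: Pol II and input in the top panel, Sox6 and input in the middle panel, and the longest models of the genes below, with Rtl1, which lies on the other strand, in light grey. Pol II rises at the Meg3 start and stays between 11.6 and 34.5 RPM per kb for 205 kb, while Sox6 stays under 3.

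The ratio to input was taken for the whole domain and for the spans between the genes in the same fit as the gene bodies. Over the whole domain 6609 and 13068 Pol II reads stood against 4003 and 4307 input reads, with a log2 ratio of 4.66 ± 0.045 (SE), or 25.3-fold (adjusted p = 1.6e-24). The span from the end of Meg3 to the start of Rian had a log2 ratio of 5.39 ± 0.087 (SE), close to that of the Meg3 body (5.54 ± 0.091) and above that of the Rian body (4.80 ± 0.074). The span from Rian to Mirg had 4.93 ± 0.069 (SE), and the Mirg body 5.04 ± 0.13 (SE). The spans without a member gene were therefore as high as the genes beside them, within the range of those genes. The span from Dlk1 to Meg3 had a log2 ratio of 1.57 ± 0.097 (SE), with 206 and 371 Pol II reads. Reading the region out to Dio3, the last gene of the imprinted domain at 738 kb, lowered the ratio to 3.70.

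The reads between Dlk1 and Meg3 did not lie evenly. In the 5-kb bin that starts 40 kb before the Meg3 start the Pol II libraries had 4.42 and 4.05 RPM per kb, against 0.746 and 0.693 in the inputs. From 30 to 20 kb before the Meg3 start the Pol II libraries had 6.69 and 7.49 RPM per kb, or 0.275 and 0.274 of the density of the first 50 kb of the plateau, against 0.783 and 0.779 in the inputs. From 20 to 10 kb before the start they had 1.10 and 0.326 RPM per kb, against 0.514 and 0.713. The upstream signal is therefore separated from the plateau by bins near input. Pol II peaks called by the authors in the span from Dlk1 to Meg3 number 7 in replicate 1 and 2 in replicate 2, of 86 and 39 in the whole domain.

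The plateau covers the miRNA genes of the domain, most of which lie on the strand of the long noncoding RNAs. GENCODE places 56 miRNA genes between the Meg3 start and the Mirg end, all of them from 3.54 to 207 kb past the start, and 47 of them matched the RefSeq miRNA table by symbol. Of the 56, 4 are annotated on the - strand, opposite to Meg3, Rian and Mirg. Within 1 kb of each gene the Pol II libraries had 8.77 to 29.6 RPM per kb with a median of 20.5 and 12.8 to 30.8 with a median of 23.3, and the inputs 0.273 to 0.887 and 0.268 to 1.03. In 56 of 56 windows both Pol II libraries were above both inputs, and many of these windows overlap, so they are not separate measurements. At Mir127 (chr12:110831042-110831138), which lies opposite Rtl1, 88 and 153 Pol II reads stood against 22 and 37 input reads. At Mir410 (chr12:110981925-110982005), 203 kb past the Meg3 start, 45 and 88 stood against 18 and 21. The lowest values were at Mir1906-1 in the first part of Meg3, with 8.77 and 12.8 RPM per kb.

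**Figure D3:**
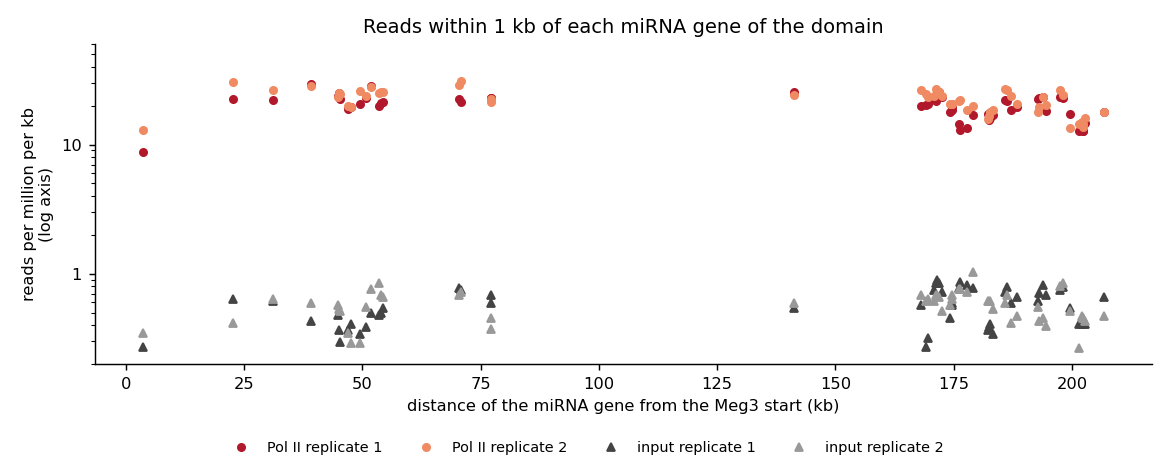
RPM per kb (log axis) within 1 kb of the middle of each of the 56 miRNA genes, by distance from the Meg3 start in kb; circles are the Pol II libraries and triangles the inputs. The lowest Pol II value, 8.77, is above the highest input value, 1.03.

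Some mature miRNAs of the plateau share a seed (bases 2 to 8), the part of a miRNA that pairs with its targets. The miRNAs that share a seed are shown as a description of this stretch of Pol II. Each sequence is the RefSeq mature miRNA, 5′ to 3′, with the seed in capitals.
miR-370-5p: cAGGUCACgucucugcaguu
miR-1193-3p: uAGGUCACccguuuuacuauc
miR-379-3p: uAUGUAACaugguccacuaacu
miR-411-3p: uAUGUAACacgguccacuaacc
miR-379-5p: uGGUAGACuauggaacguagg
miR-1193-5p: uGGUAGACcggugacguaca
miR-1197-5p: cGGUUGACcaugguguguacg
miR-758-5p: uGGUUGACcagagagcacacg
miR-494-5p: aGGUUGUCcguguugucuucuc
miR-410-5p: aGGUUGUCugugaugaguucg
On NCBI Build 37, miR-370-5p lies at chr12:110856480-110856499 and miR-1193-3p at chr12:110953960-110953980, both on the + strand. Mir370 had 70 and 125 Pol II reads within 1 kb against 26 and 18 in the inputs. Mir1193 had 60 and 114 against 26 and 33. The others lie between Mir379, 168 kb past the Meg3 start, and Mir410. Pol II was above input around all 56 miRNA genes, so both genes of each pair were high, as any 2 of them would be. The windows of Mir379 and Mir411, 168.0 and 169.2 kb past the Meg3 start, overlap. So do those of Mir1197 and Mir758, at 171.3 and 171.8 kb. The data hold no measure of the mature miRNAs.

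Peg3, a zinc finger protein that is expressed from the paternal copy, was the other member with Pol II of this size. At its start (chr7:6682132-6684132) 39 and 84 Pol II reads, or 12.7 and 15.2 RPM per kb, stood against 27 and 31 input reads, with a log2 ratio of 4.50 ± 0.29 (SE), or 22.6-fold (adjusted p = 3.0e-53). Over the body the Pol II libraries had 9.49 and 9.64 RPM per kb against 0.761 and 0.699, with a log2 ratio of 3.72 ± 0.099 (SE), so Peg3 lay below Meg3, Rian and Mirg with no overlap of the 95% intervals (3.51 to 3.92 against 4.64 at the lowest). Its neighbour Zim1, which is imprinted in the other direction, had 1.98 on the log2 scale at its start and 2.70 over its body, both called. Pol II peaks in Peg3 number 16 in replicate 1 and 14 in replicate 2.

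Grb10 had a moderate level of Pol II along the whole gene. At the start of the longest model (chr11:11936404-11938404) 2 and 7 Pol II reads (0.650 and 1.27 RPM per kb) stood against 9 and 11 input reads, with a log2 ratio of 2.23 ± 0.74 (SE, adjusted p = 0.008). That window has a GC content of 67.2% and little input, and its call was lost when ratios were centred by GC content (log2 ratio 0.97), when inputs were thinned (2.05), without Pol II replicate 2 (1.84) and without input replicate 1 (2.26). Over the body, 106 kb long, 661 and 1283 Pol II reads stood against 1814 and 1978 input reads, with a log2 ratio of 2.46 ± 0.070 (SE, adjusted p = 3.9e-17). Of 8 start groups 7 were called higher, with log2 ratios of 1.77 to 2.53, and the exception was the most upstream group, with 4 and 6 Pol II reads and 1.03 ± 0.61 (SE, adjusted p = 0.155). The ratio was similar from the first to the last of the called groups, within their intervals. The groups from 9.43 kb on lie inside the body, so their windows read the same Pol II and are not separate measurements. Pol II peaks in Grb10 number 12 and 28, the highest number of any member in replicate 2.

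**Figure D4:**
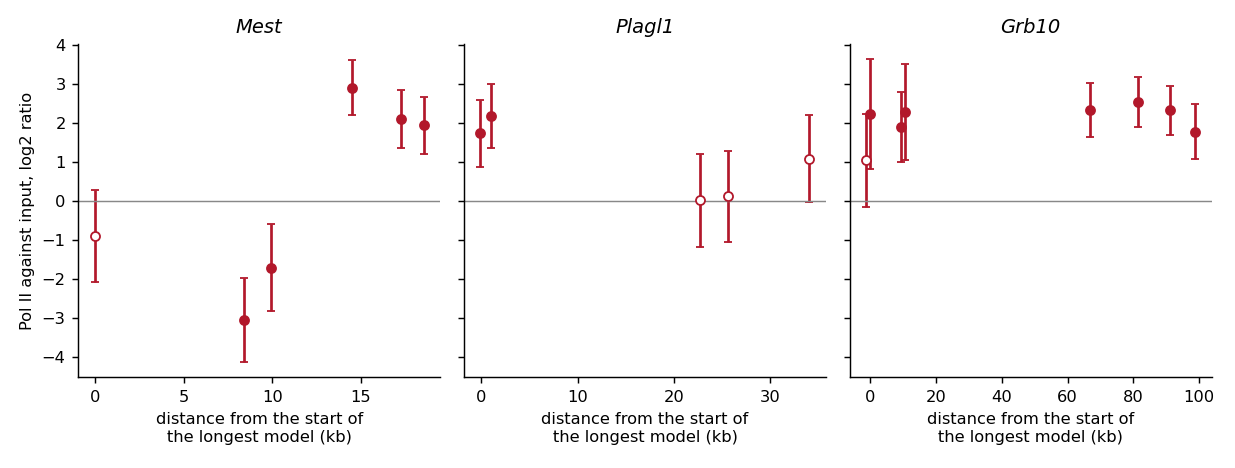
Log2 ratio of Pol II to input (points) with its 95% interval (bars) within 1 kb of each start group of Mest, Plagl1 and Grb10, by distance from the start of the longest model in kb; filled points passed an adjusted p under 0.05. In Mest the upstream groups lie below 0 and the groups from 14.5 kb on above it, in Plagl1 the groups at the gene's 5′ end lie above 0, and in Grb10 the called groups lie between 1.77 and 2.53.

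Mest, a paternally expressed gene of the alpha/beta hydrolase family, carried Pol II from a downstream start on. At the start of the longest model (chr6:30672547-30674547) 0 and 2 Pol II reads stood against 20 and 25 in the inputs, with a log2 ratio of -0.91 ± 0.60 (SE, adjusted p = 0.227). At the start 14.5 kb downstream (position 30688050), whose sequence is shown above, 16 and 25 Pol II reads (5.20 and 4.52 RPM per kb) stood against 24 and 36, with a log2 ratio of 2.90 ± 0.36 (SE, adjusted p = 1.3e-14 over all transcript starts). In between, the group at 8.42 kb held 0 and 0 Pol II reads against 49 and 44 in the inputs (1.11 and 0.907 RPM per kb), with a log2 ratio of -3.06 ± 0.55 (SE, adjusted p = 2.1e-07). The limit of 3 reads is 0.974 and 0.543 RPM per kb in the Pol II libraries, and 0.974 lies above the lower input. Over both libraries of a group together the limit is 0.349 RPM per kb and the input 1.01. The group at 9.91 kb held 1 and 0 against 34 and 30, with a log2 ratio of -1.72 ± 0.57 (SE, adjusted p = 0.007). In 10-kb bins of the genome without peaks the Pol II libraries lay at -0.91 and -1.09 on the log2 scale relative to input. The interval of the group at 9.91 kb (-2.84 to -0.60) includes that level, and that of the group at 8.42 kb (-4.14 to -1.98) lies below it. The latter ratio rests on the 0.5 reads added to counts of 0, and lower calls move with the reads added. Pol II was thus above input from the downstream start on and not above it at the starts before.

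The same border is seen over the rest of Mest. From the first start to 1 kb before the downstream start the Pol II libraries had 0.241 and 0.429 RPM per kb, below the inputs at 0.748 and 0.693. From 1 kb after the downstream start to the end of the last annotated transcript they had 3.18 and 3.12, against 0.837 and 0.802. The body of the longest model takes in most of the first stretch but only part of the second, since it ends at position 30692574 and the second stretch at 30698457. Its log2 ratio of 0.92 ± 0.18 (SE, adjusted p = 0.0002) thus mixes parts without and with Pol II above input, and is not the mean of the 2 stretches. Copg2, the imprinted neighbour on the other strand, was called at its start (1.99) and over its body (0.44). The last annotated transcripts of Mest overlap the end of Copg2, and reads of the 2 genes cannot be told apart there.

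Plagl1, a zinc finger transcription factor that slows the cell cycle, had Pol II at its 5′ end. At its start (chr10:12809594-12811594) 9 and 13 Pol II reads (2.92 and 2.35 RPM per kb) stood against 37 and 35, with a log2 ratio of 1.75 ± 0.45 (SE, adjusted p = 0.0004). Of 5 start groups the first 2 were called, at 1.73 and 2.17, and those from 22.7 kb on were not, at 0.01, 0.11 and 1.08 with SE of 0.57 to 0.61. Over the body the libraries had 0.863 and 1.25 RPM per kb against 0.855 and 0.807, with a log2 ratio of 0.40 ± 0.16 (SE, adjusted p = 0.033). That call was lost without Pol II replicate 2 (0.07), and also with limma trend (0.33), thinned inputs (0.43) or reads added in proportion to depth (0.40). No Pol II peak of either replicate lies in Plagl1.

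Cdkn1c, which encodes the CDK inhibitor p57, differed between the replicates. At its start (chr7:150645955-150647955) the Pol II libraries held 6 and 2 reads, or 1.95 and 0.362 RPM per kb, against 15 and 16, or 0.341 and 0.330, with a log2 ratio of 1.496 ± 0.69 (SE, adjusted p = 0.070). Replicate 1 lies above the inputs and replicate 2 close to them. The start was called under 6 of 16 alternatives, and leaving out a library moved its ratio from 0.39 to 2.61, the latter without Pol II replicate 2. Over the body, which is 1.70 kb long, 7 and 3 Pol II reads gave a log2 ratio of 1.93 ± 0.61 (SE, adjusted p = 0.010), which fell to 1.12 and was not called without Pol II replicate 1. The body call was lost under 4 of 17 alternatives, at ratios of 0.75 to 1.59. Both windows are rich in GC, at 66.2% and 59.9%, and centring ratios by GC content gave the body the lowest of these ratios (0.75).

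**Figure D5:**
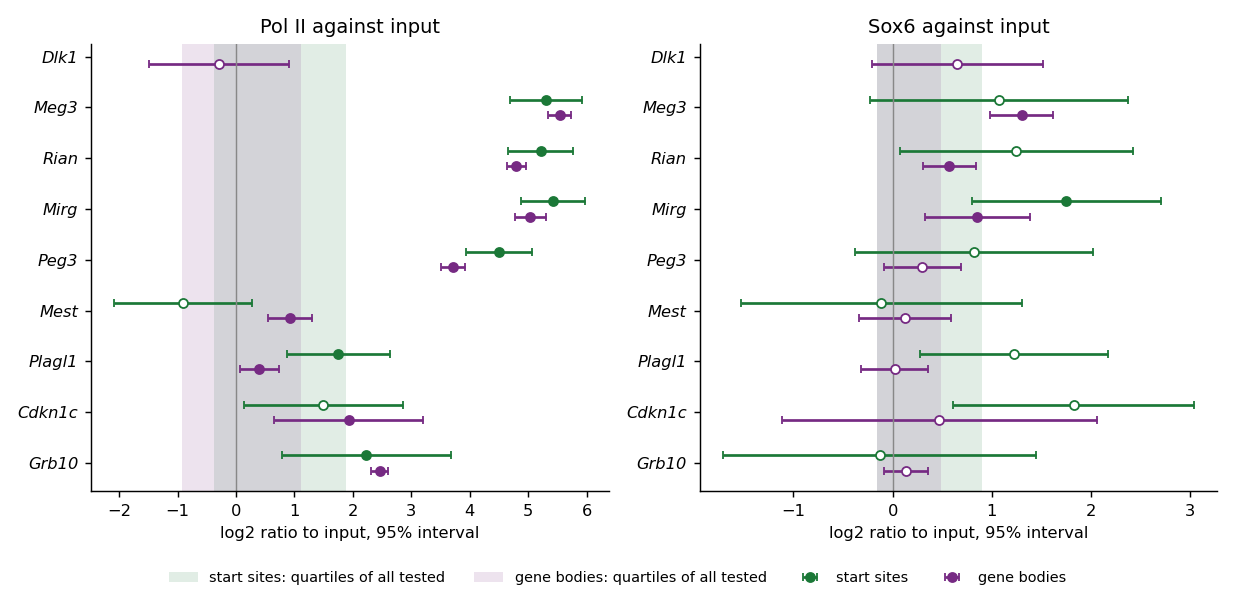
Log2 ratio of Pol II (left) and Sox6 (right) to input with 95% intervals for the 9 genes, green for start sites and purple for gene bodies; filled points passed an adjusted p under 0.05, shaded bands run from the lower to the upper quartile of all features tested, and the Dlk1 start is left out because its window was at or under the limit of detection. Pol II ratios of Meg3, Rian, Mirg and Peg3 lie at 3.72 or above, far outside the bands, and the Sox6 ratios lie at 1.82 or below.

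The genes also differed in how Pol II was shared between start and body. Over 7285 genes called higher over the body, the start exceeded the body by a median of 0.48 on the log2 scale. Plagl1 (1.35) and Peg3 (0.78) lay above that median, Rian (0.41) and Mirg (0.39) near it, and Meg3 (-0.24), Grb10 (-0.23) and Cdkn1c (-0.43) below it. The Grb10 start held 2 and 7 Pol II reads and the Cdkn1c start 6 and 2. Their start ratios ran from 0.97 to 3.22 and from 0.25 to 2.84 over the alternatives, so their place is not fixed. The Plagl1 start held 9 and 13 Pol II reads, and its ratio ran from 1.15 to 2.79 over the alternatives. Its body ratio fell to 0.07 without Pol II replicate 2, so the size of the Plagl1 difference is not fixed either. The start windows of Rian and Mirg lie inside the continuous stretch of Pol II described above. Their values therefore do not separate Pol II at a start from Pol II over a body. Mest, read at the start of its longest model, had -1.83, under which 3.58% of these genes lay, but this start held 0 and 2 Pol II reads and its ratio ran from -2.54 to 0.38 over the alternatives. No test was made of these differences.

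As a level per gene length, Pol II in all reads over the gene was set against Actb, the reference gene of the study, at 26.4 and 35.8 RPKM. The study counted reads in peaks only and reported a lower RPKM for Actb, so 0.1 of Actb here is not its threshold. Meg3 had 24.5 and 27.2 RPKM, or 92.6% and 75.9% of Actb, Rian 68.9% and 57.2%, Mirg 60.8% and 48.3% and Peg3 37.8% and 28.4%. Grb10 had 15.2% and 12.2%, and Mest, Plagl1 and Dlk1 had at most 4.78% in either replicate. Cdkn1c had 11.8% in replicate 1 and 1.87% in replicate 2. Rian had 18.2 and 20.5 RPKM, Mirg 16.1 and 17.3, Peg3 9.99 and 10.2 and Grb10 4.02 and 4.35. In RPKM, which is not divided by input, these 5 genes followed each other in this order, from Meg3 down to Grb10, in both replicates, with no overlap between neighbours. Against input the order of Rian and Mirg was the other way, with body log2 ratios of 4.80 and 5.04 and overlapping intervals. Mest (1.26 and 1.43 RPKM) and Plagl1 (0.937 and 1.33) overlapped, and Cdkn1c (3.13 and 0.670) spanned both. Of the 9 genes 5 were above 0.1 of Actb in both replicates, against 5.09% of all genes, and Meg3 ranked 25 and 24 of 22408. From reads in the called peaks of replicate 2 alone, Grb10 came to 2.41% of Actb, below that level, and the other 4 to 22.3% to 74.3%. Among them Mirg (58.4%) then stood above Rian (55.6%). For comparison, Myh3, the embryonic myosin heavy chain, had 73.3 and 77.8 RPKM.

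Sox6 was measured in the same way, with 0 to 10 reads per library at the starts of the 9 genes. In simulated counts at the depth of these libraries, 16 of 50 start sites raised 4-fold for Sox6 were called. The spread between simulated libraries was set by hand and the raised sites were drawn at random. This share is therefore not the rate of detection at the starts of the 9 genes. A start that was not called can thus still be enriched. At the starts, 1 of 9 genes was called higher for Sox6, Mirg, and 0 lower, against 0.791% and 0.0375% of 21352 start sites. The Mirg start held 9 and 8 Sox6 reads (1.51 and 2.72 RPM per kb) against 34 and 20 input reads, with a log2 ratio of 1.75 ± 0.49 (SE, adjusted p = 0.042). That call was lost under 9 of 17 alternatives, among them leaving out Sox6 replicate 2 (1.49), input replicate 1 (2.21) or input replicate 2 (1.31). Cdkn1c had the highest ratio, 1.82 ± 0.62 (SE), on 6 and 4 reads, and was not called (adjusted p = 0.149). The Grb10 start held 1 and 0 Sox6 reads, and the Dlk1 start 0 in each library. The median over all start sites was 0.40 on the log2 scale.

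Over gene bodies 3 of 9 genes were called higher for Sox6 and 0 lower, against 6.93% and 1.62% of 19692 bodies, and the 3 lie in the Pol II plateau. The Meg3 body had 1.33 and 1.44 RPM per kb of Sox6 against 0.551 and 0.563 of input, with a log2 ratio of 1.30 ± 0.15 (SE, adjusted p = 2.3e-05). The Rian body had 0.57 ± 0.13 (SE, adjusted p = 0.008), and the Mirg body 0.85 ± 0.26 (SE, adjusted p = 0.041). The calls of Rian and Mirg were lost without Sox6 replicate 2 (0.51 and 0.79), and that of Mirg also without Sox6 replicate 1 (0.99). In all, the Rian call was lost under 2 of 17 alternatives and the Mirg call under 7, at ratios of 0.47 to 0.99. The ratio of the whole domain was 0.83 ± 0.075 (SE), that of the span from Meg3 to Rian 1.44 ± 0.15 and that of the span from Rian to Mirg 0.87 ± 0.12. The 41 bins of the plateau had median log2 ratios to their own input of 0.85 and 1.12 in the 2 Sox6 libraries, against 0.54 and 0.73 in 26 bins that lie at least 60 kb before or 220 kb past the Meg3 start, which leaves out the bins next to the plateau and those with Pol II upstream of Meg3. Not every bin of the plateau was higher: from 105 to 110 kb past the Meg3 start Sox6 had 0.536 and 0.409 RPM per kb against 0.674 and 0.882 in the inputs. Over the genome, the 129 genes with a Pol II log2 ratio above 4 over the body had a median Sox6 log2 ratio of 0.86, and the 9774 genes with a Pol II ratio between -1 and 1 one of 0.15. Meg3, Rian and Mirg are among the 129, and both ratios are taken against the same inputs. The part of Pol II density in the Sox6 ratios was not tested.

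No Sox6 peak common to the replicates lies within 20 kb of any of the 9 genes, nor within 50 kb. Of all genes 4.39% have one within 20 kb and 7.17% within 50 kb, so 0 of 9 lies near these shares and is not a trait of these genes. In the lists of single replicates, 1 gene has a peak within 20 kb in replicate 1, Peg3, and 0 in replicate 2, against 9.76% and 6.77% of all genes. The Peg3 peak (chr7:6702172-6702211) lies 19.1 kb upstream of the start. In the 450 bp around its centre Sox6 replicate 1 had 17 reads and replicate 2 had 2, against 8 and 10 in the inputs. In replicate 2, which had not been used to call it, it was not found to be higher than input (ratio 3.30, exact binomial p = 0.147, adjusted p = 0.180, covering counting error only), while 66.9% of the 2888 peaks of that list were.

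A further peak, of replicate 2, lies in the domain but more than 20 kb from any member. It stands 26.5 kb upstream of the Meg3 start (chr12:110752732-110752771), inside the stretch of Pol II upstream of Meg3. The window around it held 6 and 8 reads of Sox6 and 7 and 10 of input. Pol II had 9 and 20 reads there. In the other replicate Sox6 was 6.31 times input (exact binomial p = 0.002, adjusted p = 0.003 over 1734 peaks, of which 84.4% were higher). On the deposited interval of 40 bp in place of the 450 bp the peak was not called. Pol II was at 5.85 and 7.24 RPM in the same window against 0.319 and 0.412 in the inputs, and its part in the Sox6 count was not tested.

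The 141 bases around the centre of each of these peaks are shown on the + strand of NCBI Build 37, since they are the only Sox6 peaks within 20 kb of a member or inside the domain, with the same motifs in capitals.
Peak upstream of Peg3, chr7:6702121-6702261: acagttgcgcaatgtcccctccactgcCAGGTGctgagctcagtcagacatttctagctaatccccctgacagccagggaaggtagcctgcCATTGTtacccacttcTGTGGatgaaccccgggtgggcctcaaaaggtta
Peak upstream of Meg3, chr12:110752681-110752821: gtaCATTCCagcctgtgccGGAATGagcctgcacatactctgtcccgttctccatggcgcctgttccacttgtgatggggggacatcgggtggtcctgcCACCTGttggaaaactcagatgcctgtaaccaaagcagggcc
The window upstream of Peg3 holds 1 Sox sequence, as do 38.1% of the windows of the replicate 1 list, with 1 E-box (49.7%) and 1 Runx sequence (57.0%). The window upstream of Meg3 holds no Sox sequence, which 41.6% of the windows of the replicate 2 list hold, but 2 Tead sequences (21.8%) and 1 E-box (52.5%). These letters in a window do not say what was bound.

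The other imprinted genes give the frame for these values. Of 62 that are in the annotation, 27 of 58 tested were called higher for Pol II at the start and 6 lower (calls that move with the reads added, as above), with a median log2 ratio of 0.91, against 36.1% called higher and a median of 0.75 over all start sites. The 5 highest were Rtl1 (5.13), which lies between Meg3 and Rian on the other strand in the plateau, H19 (4.86), the maternally expressed RNA beside Igf2, Tssc4 (4.64), Sgce (4.27) and Peg10 (4.27), paternally expressed genes with neighbouring starts. Over the body Sgce was not called (log2 ratio 0.04), while Peg10 was (3.29). Near Cdkn1c, the start of Kcnq1 held 0 and 0 Pol II reads against 21 and 26 in the inputs, which lie under the limit of 3 reads, while its body was higher (log2 ratio 0.68), and Slc22a18 and Phlda2 were not called. Ddc, beside Grb10, held 2 and 0 Pol II reads at its start against 27 and 49 in the inputs. Its start was called lower (log2 ratio -1.51) and its body higher (1.79). Common Sox6 peaks lie within 20 kb of 5 of the 62, against 4.39% of all genes: Igf2r, Airn, Sgce, H13 and Ddc. The 3 peaks near Ddc, the gene of an enzyme of dopamine synthesis, lie over 50 kb from Grb10.

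Of 12 CDK inhibitors and genes of insulin and growth signalling, the setting in which Cdkn1c and Grb10 act, 7 of 11 tested were called higher for Pol II at the start and 0 lower, against 36.1% and 5.79% of all start sites. Common Sox6 peaks lie within 20 kb of 2 of the 12, against 4.39% of all genes. These are Igf1r, the receptor of insulin-like growth factor, with 1 peak, and Notch1, a receptor that holds back muscle differentiation, with 3.

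The genes whose pattern was most like that of a member were named by the smallest distance over the 4 log2 ratios, Pol II and Sox6 at start and body, among 19149 genes. For Meg3 they were Rtl1 (distance 0.32), which lies in the same plateau, Myod1 (0.49) and Tlcd2 (0.64). For Rian they were Tubb6, 2210403K04Rik and Ttn, at 0.31 to 0.46, and for Mirg Pcbp1, Rian and Ttn, at 0.28 to 0.70. For Peg3 they were Eif4g2, Rdh5 and Srsf3, at 0.37 to 0.38. Plagl1 had Hira, 1810019N24Rik and Entpd7 (0.12 to 0.19), and Grb10 had Sec24c (0.25) and Ptrh2 (0.28). Likeness over 4 ratios of 6 libraries is a description of these values.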

How the data were processed

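Per the labels and the study's methods, the authors aligned single-end reads with Bowtie 0.12.5 at default parameters to NCBI Build 37 (mm9), kept reads with a single place, called peaks with SISSRs (fragment length 450 bp, the input of each experiment as background) and took Sox6 peaks within 50 bp of each other as common. The deposited files hold positions of reads and peaks only, with no value per gene and no normalization, so reads were counted here. Libraries hold 1468604 to 2985437 (ChIP) and 21973495 and 24249850 (input) reads, and repeated positions (2.96 to 7.88%) were kept.

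Read 5′ ends were counted within 1 kb of the start of the longest GENCODE model of each gene with a RefSeq transcript. The model itself need not be a RefSeq one. Bodies were counted from 1 kb after that start to the end of the model. Features with at least 10 reads over 4 libraries were fitted with limma 3.58.1 (R 4.3.3) with voom weights, with 0.5 reads added, separately for Pol II and Sox6 against input, with Benjamini-Hochberg adjustment over all features. The scripts were tested on simulated data. Each Sox6 peak of a replicate was tested in the replicate that had not called it, Sox6 against input, by a two-sided exact binomial test. Python 3.11.15 was used for counting. RPM is reads per 1000000 reads of the library, and RPKM is RPM per kb of gene. Intervals of ratios come from the limma fit and carry the spread between libraries, pooled over features. Limits of detection and binomial p-values cover counting error only.

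The members, gene lists, tests and alternatives were chosen with earlier results of these data known. The text names all members, the spans of the domain, each Sox6 peak within 20 kb of a member or in the domain, the 5 other imprinted genes with the highest Pol II ratio at the start, imprinted neighbours within 50 kb, listed genes with a common Sox6 peak within 20 kb, and the 3 nearest genes in pattern, of which 1 is not reported here; marker genes and Myh3 were named in addition. In the alternative with all annotated genes, starts with over 1000 input reads (satellite repeats) were left out at the start sites, a choice made after seeing the data. No column of per-sample values was left out.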

Additional observations from a re-analysis of the deposited data

How the results depend on the processing

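The Pol II ratios of Meg3, Rian, Mirg and Peg3, at the start and over the body, and those of the domain kept their direction and call under all alternatives run. The size of the p-values did not hold: the adjusted p of the Meg3 start, 5.1e-61 in the main fit, was 0.006 with reads added in proportion to depth. With thinned inputs it was 0.021. Genome-wide, the number of start sites called higher for Pol II (7679) was 12741 with 2 reads added, 4950 with reads added in proportion to depth, 3715 with thinned inputs and 11722 when scaled on bins without peaks, which also gave 11246 bodies (7301). That for Sox6 at start sites (169) was 457 with 2-kb flanks, 65 with 500-bp flanks, 5889 with 2 reads added, 3 with reads in proportion to depth, 7 with thinned inputs, 67 with limma trend, 276 with no filter, 289 when GC-centred, 260 with all annotated genes and 446 with all transcript starts. That for Sox6 over bodies (1365) was 2328 with 2 reads added, 605 with thinned inputs and 450 when GC-centred. Without each library in turn these counts ranged from 6304 to 8071, 29 to 747 and 421 to 2788, and Pol II bodies from 6333 to 7630.

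The members called for Sox6 at the start (1) numbered 5 with 2 reads added, and 0 with shifted read ends, reads in proportion to depth, thinned inputs, limma trend, 500-bp flanks or the replicate block, and 0 to 1 without each library. Over bodies (3) there was 1 with thinned inputs, and 1 to 3 without each library. Sox6 peaks within 20 kb were at 0 members in the common list and 1 in that of replicate 1, and the deposited interval called 0 of the 2 peaks. Members called for Pol II ranged from 5 to 6 at starts and 7 to 8 over bodies without each library, and from 5 to 7 and 6 to 8 over all alternatives.

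Single ratios that changed sign had not been called. The Mest start was 0.38 for Pol II with 2 reads added and 0.048 when scaled on bins. The Dlk1 body was 0.011 with 2 reads added, 0.76 when scaled on bins, 0.066 with the replicate block, and -1.31 to 1.12 without each library. For Sox6, the Mest start was 0.57 with 2 reads added, 0.048 when GC-centred and -0.25 to 0.040 without each library, and the Grb10 start 1.16 with 2 reads added and -0.41 to 0.15 without each library. The Sox6 ratio of the Cdkn1c body was -0.039 with reads in proportion to depth, -0.091 when GC-centred and -0.22 to 1.54 without each library. That of the Plagl1 body was -0.023 with limma trend and -0.16 to 0.12 without each library, and that of the Mest body -0.041 to 0.46. The Sox6 call of the span from Dlk1 to Meg3 (0.41) was lost under 8 alternatives. Over single genes and spans, 605 comparisons kept their direction and their side of the threshold, 38 lost a call, 10 gained one and 20 changed sign. The causes were not tested.

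Libraries with the same number did not deviate together (correlations of -0.04 to 0.04), so the number was not taken as a pairing. With the replicate block Pol II calls numbered 7501 at starts and 7607 over bodies, and Sox6 calls 131 and 2992, with 6, 8, 0 and 3 members. At the depth of the ChIP libraries, windows with under 10 ChIP reads, as at Dlk1, Cdkn1c and the Grb10 start, limit what can be detected.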
